A study of Mus musculus with 6 samples.

Results

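Clca3a1 and Clca3a2 are paralogous genes that lie next to each other in the Clca cluster of mouse chromosome 3, and both were measured in E13.5 mammary buds with and without Fc-Eda. They were chosen by name as neighbours among the largest rises after Fc-Eda in this experiment, so the difference between Fc-Eda and control is described here without a test. They are 2 of the 25949 genes with a row of deposited values, and both have 1. Clca3a2 is listed as ENSMUSG00000028262_at and Clca3a1 as ENSMUSG00000056025_at.

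The study asked which genes respond first to Ectodysplasin (Eda), a Tnf family ligand, in the embryonic mammary bud. All buds came from Eda-/- embryos of B6CBA background, which lack the ligand, and were microdissected with most of the surrounding mesenchyme removed by hand. Control buds were kept for 4 h without recombinant protein, and treated buds for 4 h with 250 ng/mL of Fc-Eda, a recombinant Fc-Eda-A1 protein. By the sample descriptions each array holds a pool of about 20 buds from 5 to 6 embryos. The study's methods also allow smaller pools. There were 3 biological replicates, and the sides of an embryo were divided between both conditions, so that the 6 Affymetrix Mouse Exon 1.0 ST arrays form 3 pairs. Both conditions therefore share the missing ligand, and neither shows the level of these genes in buds with Eda of their own. Other identifiers have no gene name here, so the labelled tissue was not checked against its marker genes. In pooled buds, a difference in the number of cells that express a gene and a difference in RNA per cell cannot be told apart.

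Clca proteins are known as regulators of calcium-activated chloride currents in epithelia. They were first taken for chloride channels themselves, and are now seen as secreted or membrane-bound proteins that cleave themselves and act on channels. The mouse gene Clca3a2 is known from the involuting mammary gland, and Clca3a1 from lymphatic endothelium as well as from epithelia. Eda is a ligand of the tumour necrosis factor family, and its receptor in epithelial cells, Edar, signals through the transcription factor NF-κB. The names of the family have moved over time. In the RefSeq gene table the older name of Clca3a2 is Clca2 and that of Clca3a1 is Clca1, while the symbols Clca1 and Clca2 now belong to other genes at the far end of the cluster. The name Clca2 is also listed there as a synonym of the present Clca1, so the older name alone does not settle the gene. The cluster holds 8 Clca entries in the order Clca3a1, Clca3a2, Clca3b, Clca4c-ps, Clca4b, Clca4a, Clca1 and Clca2, between Sh3glb1 on the side of Clca3a1 and Odf2l on the other.

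In control buds, the deposited log2 value of Clca3a2 was 5.79 in replicate 1, 4.76 in replicate 2 and 5.26 in replicate 3. After Fc-Eda it was 7.54, 6.94 and 7.82 in the same order. All 3 arrays of treated buds lay above all 3 controls, and the lowest treated array was 1.15 above the highest control. Control buds had a mean of 5.27 ± 0.52 (SD, n = 3) and treated buds a mean of 7.43 ± 0.45.
The value of Clca3a1 was 4.71, 3.83 and 4.30 in the control buds of replicates 1, 2 and 3. After Fc-Eda it was 6.08, 5.38 and 6.47. These groups did not overlap either, with a gap of 0.67 between the lowest treated array and the highest control. Control buds had a mean of 4.28 ± 0.44 (SD, n = 3) and treated buds a mean of 5.98 ± 0.55. Such a separation upwards was seen in 3.98% of all probe sets. Since the genes were chosen for this contrast, nothing is read from their place in that share.

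**Figure D1:**
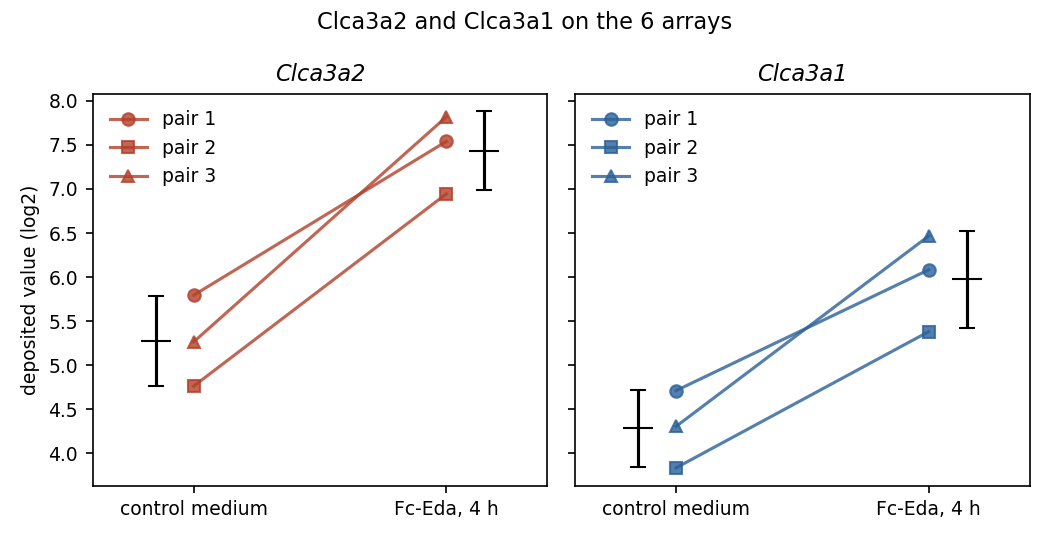
Deposited log2 values of Clca3a2 and Clca3a1 on the 6 arrays, with control medium and Fc-Eda on the x axis, lines joining the arrays of a pair, and black bars for mean ± SD (n = 3). In both genes every treated array lies above every control, pair 2 is lowest in both conditions, and the means go from 5.27 to 7.43 in Clca3a2 and from 4.28 to 5.98 in Clca3a1.

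Within the pairs, Clca3a2 was higher after Fc-Eda by 1.75, 2.18 and 2.55 on the log2 scale in pairs 1, 2 and 3. The mean difference of 2.16 ± 0.40 (SD, n = 3) equals a 4.47-fold higher value, with 3.35-fold in the lowest pair and 5.87-fold in the highest. Clca3a1 was higher by 1.37, 1.55 and 2.16, with a mean of 1.69 ± 0.42. That is 3.23-fold, with 2.59-fold and 4.47-fold in the lowest and highest pair. In both genes pair 3 gave the largest difference, in the deposited values and in the 3 other normalizations. The deposited difference was smallest in pair 1, but for Clca3a1 pair 2 was the smallest after quantile normalization, at 1.48 against 1.52 in pair 1, and after centring of the arrays, at 1.53 against 1.56.
By mean difference Clca3a2 stood 2nd and Clca3a1 6th among the 25949 probe sets. The values next to Clca3a2 in that order were 2.25 above it and 2.12 below it, and those next to Clca3a1 were 1.80 and 1.56. In single pairs Clca3a2 ranked 7th, 1st and 1st and Clca3a1 20th, 6th and 3rd. Both were among the 13 probe sets whose difference exceeded 1 in each pair, a share of 0.0501%. Ordered by the smallest of the 3 differences, Clca3a2 was 1st and Clca3a1 5th. High places were part of the choice of the genes, so nothing is read from these ranks or from that share.

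**Figure D2:**
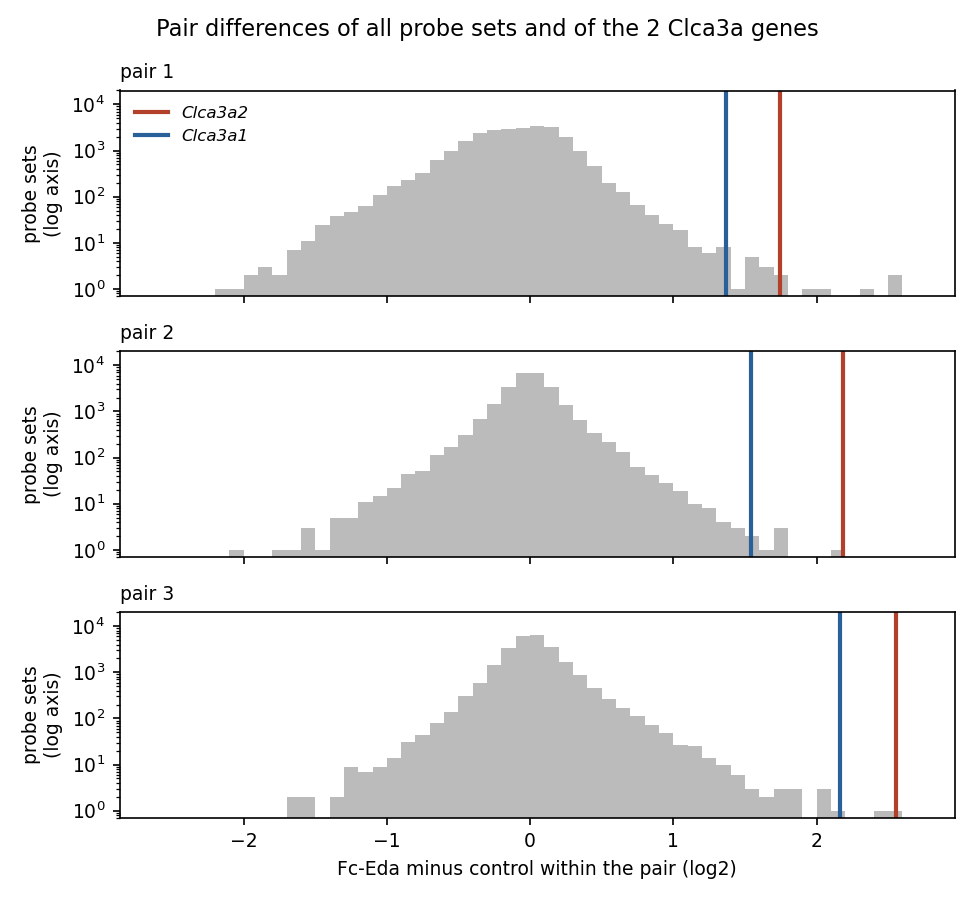
Histograms of the log2 difference between Fc-Eda and control over all 25949 probe sets, in bins of 0.1 with a log count axis and 1 panel per pair, with vertical lines at the differences of Clca3a2 and Clca3a1. Both lines lie in the upper tail of each pair, at 1.75 and 1.37 in pair 1, 2.18 and 1.55 in pair 2, and 2.55 and 2.16 in pair 3.

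The arrays as a whole differed little, except for that of control replicate 1. Its median over all probe sets was 4.99, against 4.80 to 4.83 on the other 5 arrays, and the SD of the pair differences over all probe sets was 0.33 in pair 1 and 0.21 and 0.23 in pairs 2 and 3. The median pair difference was -0.07, 0.00048 and 0.0085. Both genes had their highest control value on that array. Clca3a2 was 0.78 higher there than the mean of control replicates 2 and 3, and Clca3a1 0.64 higher. Over probe sets whose mean control level lay within 0.25 of theirs, the median of the same shift was 0.09 at the level of Clca3a2 and 0.24 at that of Clca3a1. Without pair 1 the mean difference was 2.37 in Clca3a2 and 1.85 in Clca3a1.

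Both genes varied among arrays of the same condition more than most probe sets of like level did. The SD of Clca3a2 over the control arrays, 0.52, exceeded that of 97.2% of the 2222 probe sets within 0.25 of its mean control level, whose median SD was 0.15. That of Clca3a1, 0.44, exceeded 94.1% of 2534 probe sets, with a median of 0.19. After Fc-Eda the SD of 0.45 in Clca3a2 exceeded 99.4% of 1404 probe sets and that of 0.55 in Clca3a1 exceeded 99.2% of 2026. These shares describe 3 arrays per condition and were not tested. The order of the arrays was the same in both genes, with replicate 1 above 3 above 2 in control medium and replicate 3 above 1 above 2 after Fc-Eda.

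**Figure D3:**
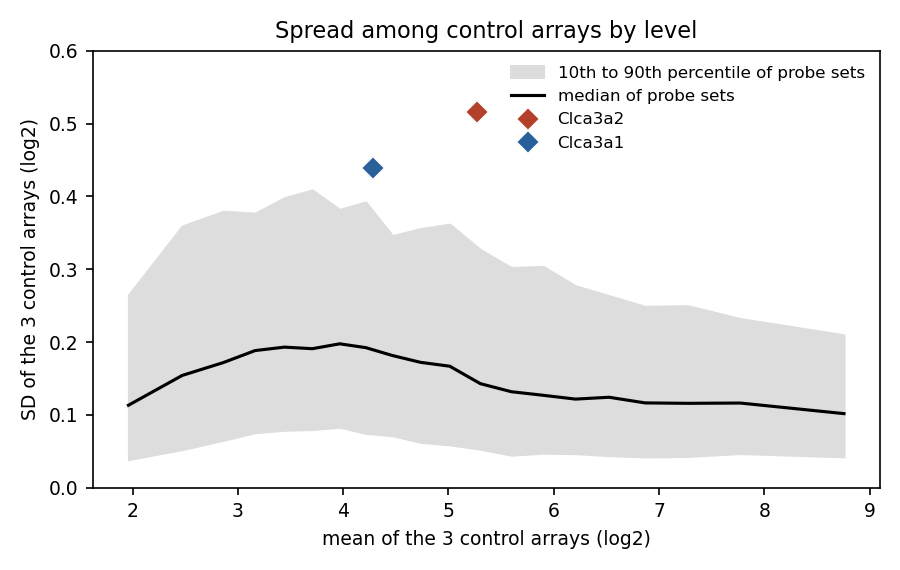
SD over the 3 control arrays (y axis, log2) against their mean (x axis, log2), with the median (line) and the 10th to 90th percentile (grey) of all probe sets in 20 groups of equal size by level. Diamonds mark Clca3a2, at a mean of 5.27 and an SD of 0.52, and Clca3a1, at 4.28 and 0.44, both above the grey band.

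The paralogs followed each other across the arrays, with different sizes of difference. Levels of different probe sets are not comparable as amounts of RNA, because probes differ in how well they bind, so only the change in their offset is read. The log2 value of Clca3a2 minus that of Clca3a1 on the same array was 1.08, 0.93 and 0.96 in control replicates 1, 2 and 3 and 1.46, 1.56 and 1.35 after Fc-Eda. The offset was larger on every treated array than on any control. How often the offset of other raised probe sets separates in this way was not computed, so the separation is only a description. On the scale of the deposited values the difference of Clca3a2 exceeded that of Clca3a1 by 0.37, 0.64 and 0.39 in the 3 pairs, a mean of 0.47 ± 0.15 (SD, n = 3). The control values of Clca3a1 lay above 44.6%, 32.3% and 40.3% of the probe sets on their arrays and those of Clca3a2 above 65.6%, 49.3% and 57.3%. Signal over background is not known here, and the part of a dimmer baseline in the smaller difference of Clca3a1 was not tested, so it is not shown that the transcripts changed unequally. In pair 1 the excess was smaller after cyclic loess, at 0.19, and after quantile normalization, at 0.20.

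**Figure D4:**
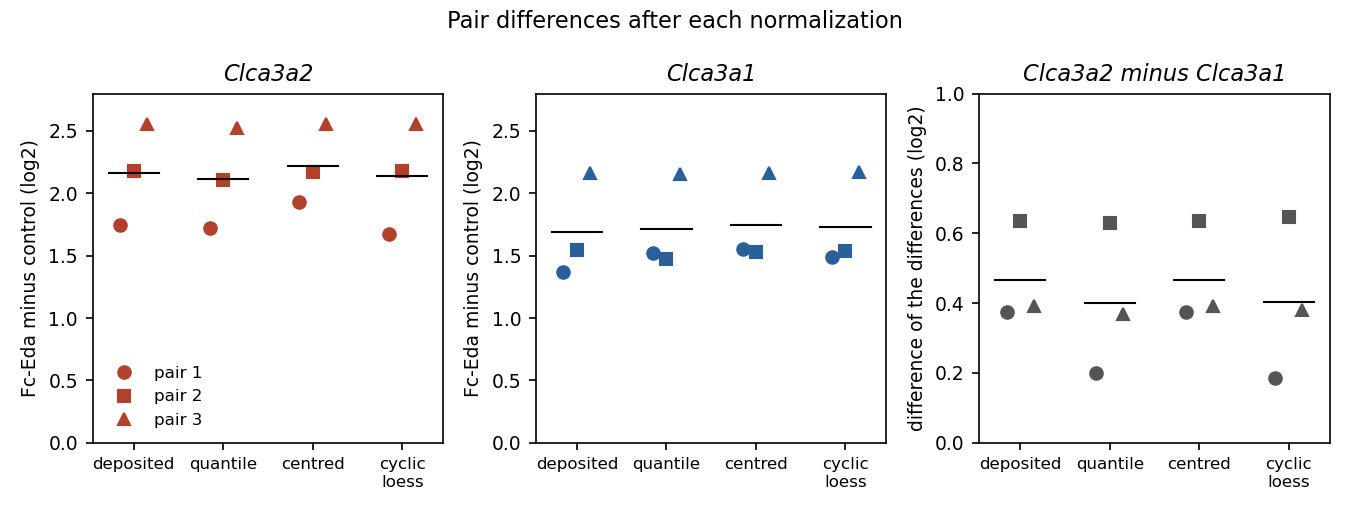
Pair differences between Fc-Eda and control (y axis, log2) of Clca3a2, of Clca3a1, and the former minus the latter, from the deposited values and after quantile normalization, centring of each array on its median and cyclic loess (x axis), with 1 symbol per pair and a line at the mean. The means stay between 2.12 and 2.22 in Clca3a2, between 1.69 and 1.75 in Clca3a1, and between 0.40 and 0.47 for their difference, and every symbol lies above 0.

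Among the 1432 probe sets whose values spanned at least 1 log2 unit over the 6 arrays, the one most like Clca3a1 was Clca3a2, with a Pearson r of 0.993 over the 6 arrays. From the side of Clca3a2, Clca3a1 came 2nd, after ENSMUSG00000038781 with r = 0.994. ENSMUSG00000027253 was 3rd for both, with r = 0.988 to Clca3a2 and 0.978 to Clca3a1. These probe sets differed between conditions by less, with a mean of 1.12 in ENSMUSG00000038781 and 0.93 in ENSMUSG00000027253. The 5 probe sets most like each gene were, apart from the pair itself, the same 4 identifiers. All 6 points share the division into treated and untreated arrays, so these values are descriptions.
How far the probes of one paralog also bind transcripts of the other was not tested. For qRT-PCR the study lists a single primer pair under the name Clca1/2, shown here as its assay for these genes. The study ran it on Eda-/- buds after 4 h of Fc-Eda. It reported the tendency of the microarray for every gene it tested by qRT-PCR, with a significant difference in some of them. The primers were not matched to either transcript.
Forward primer: gaagcaacaaggtgttccac
Reverse primer: attcaaccacagaattaagg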

How the data were processed

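The authors deposited log2 expression values from 6 Affymetrix Mouse Exon 1.0 ST arrays, 1 per array and Ensembl gene identifier. The submitters' processing notes name RMA. The version and the probe set definition are not given in the sources used here. Conditions and replicate numbers were taken from the sample titles, and the dose from the study's methods. Signal over background was not available for these values, and precision is limited by having 3 arrays per condition. The RefSeq table (GRCm38.p6) paired 0 of the 25949 identifiers with a symbol. The names of the 2 genes came with their choice and could not be checked against it, and the gene lists, locus neighbours and tissue markers that had been planned were not analysed here.

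The 2 genes, lists and tests were chosen with earlier results of these data known. Promoter sequence is not reported here. Named were both genes, their neighbours in rank by value, and, of the 5 most similar probe sets by Pearson r over the arrays, the 2 nearest to both. Replicate numbers mark buds of the same embryos, and the deviations of a pair from the condition means correlated with r = 0.079, 0.29 and 0.29. Over all probe sets, Fc-Eda was compared with control in limma 3.58.1 (R 4.3.3) with the replicate as a block and Storey q-values, at a threshold of 0.05. IBMT and a Cyber-T type test were written out from their formulas, and all 3 tests were tested on simulated data with 200 changed probe sets. Each recovered 100 of 100 changes of size 1 and 100 of 100 of size 2. The simulated noise was set by level alone, so this recovery does not show how the tests perform on the real arrays. Descriptions used Python 3.11.15 and pandas 2.3.3. Alternatives were other tests, filters and normalizations and leaving out each pair.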

Additional observations from a re-analysis of the deposited data

How the results depend on the processing

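The mean difference between Fc-Eda and control in Clca3a2, 2.16, moved by less than its SD between pairs in all 6 alternatives, with 2.12 after quantile normalization, 2.22 with each array centred on its median and 2.14 after cyclic loess, and 1.96 to 2.37 with a pair left out. That of Clca3a1, 1.69, did so too, with 1.72, 1.75 and 1.73 and a range of 1.46 to 1.85. The difference between both, 0.47, was 0.40 after quantile normalization and after cyclic loess and 0.38 to 0.51 with a pair left out. Their direction was part of the choice of the genes.

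Over all probe sets limma with the replicate block called 0 (0%) at q under 0.05. Before adjustment, p was under 0.05 in 708 higher and 864 lower. The order turned after quantile normalization (1016 and 900), centring (981 and 558) and cyclic loess (1057 and 895), and in IBMT, the Cyber-T type test, with trend, above the median level and without pair 1. With the block, limma also called 0 with Benjamini-Hochberg adjustment, quantile normalization and cyclic loess. With no replicate block it called 3 (all higher), and with trend 96, above the median level 91 and after centring 57 (90, 85 and 56 higher). IBMT called 94 (88 higher), and the Cyber-T type test and any of the 3 tests gave 193 (162 higher). The study's own list used the rule of any of the 3 tests and held more probes in both directions. With a pair left out limma called 0 to 11: 0 without pair 1, 5 without pair 2 (all higher) and 11 without pair 3 (10 higher). The cause was not tested.

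Not run, as identifiers could not be named, were the other Clca genes, the chloride channel list and the locus neighbours.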
